A study of Mus musculus with 36 samples.

Results

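Blood clotting and clot removal are held in balance by a small set of cell-surface receptors, enzymes and matrix proteins, 8 of which were followed here in mouse macrophages. The members were thrombomodulin (Thbd), tissue factor (F3), factor VII (F7), factor X (F10), the endothelial protein C receptor (Procr), urokinase (Plau), the urokinase receptor (Plaur) and thrombospondin 1 (Thbs1). They were taken by name, as the probes whose gene symbol in the array table, letter case ignored, was 1 of these 8, which gave 10 of the 45281 probes. This rule uses no measured level.

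Tissue factor on a cell surface binds factor VII and starts the cascade, factor VII then cuts factor X, and active factor X makes thrombin. Thrombomodulin turns thrombin into an activator of protein C, an anticoagulant, and the protein C receptor holds protein C in place for that step. Urokinase, bound to its receptor, makes plasmin, which dissolves fibrin. Macrophages are known to make several of these proteins, and those in plaques and wounds are a known source of tissue factor and urokinase.

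The arrays, 36 Illumina bead arrays, carried RNA of macrophages grown from the bone marrow of C57BL/6 mice of 2 to 5 months with the growth factor M-CSF. The mice were LXRa/LXRb dko, lacking both liver X receptors (nuclear receptors that switch on cholesterol export genes), or wt. The study asked whether cyclodextrin (CD), a ring of sugars that takes up cholesterol, acts on macrophage genes through these receptors. In each genotype 1 group received cholesterol crystals for 3 h and then, after a wash, 10 mM CD for 4 h, 1 group received CD alone, 1 received crystals alone and 1 was untreated. Each dko group held 4 arrays, numbered 6 to 9, and each wt group 5 arrays, numbered 1 to 5. Per-array values below follow the order of these numbers. The labels do not say whether a number is an animal or a culture, so a p-value reflects only how far these arrays spread, and that spread may be technical. The labels do not say how the knockout was made.

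All 7 macrophage markers examined (Cd68, Csf1r, Itgam, Adgre1, Lyz2, Fcgr1 and Mertk) were detected on all 36 arrays, with Lyz2 at a median normalized log2 intensity of 14.45. Of the endothelial markers, which matter here because endothelium is the best-known source of Thbd and Procr, 4 of 7 passed the detection filter. Vwf was detected on all 36 arrays, with a median log2 intensity of 8.62, Pecam1 on 18, Cdh5 on 14, Kdr on 9, Tek on 3, Cldn5 on 1 and Emcn on none. No hepatocyte marker of 4 passed, the liver being the main source of factors VII and X in plasma. The probes for the targeted receptors did not separate the genotypes: Nr1h3 ran from 9.59 to 10.91 in dko arrays and from 9.19 to 11.29 in wt arrays, and the labels do not say where these probes lie relative to the deletion, so they do not check the genotypes. All arrays fell into those with high Xist and low Eif2s3y, a Y-linked gene, and those with the reverse. Every dko group held 2 arrays of each kind. Every wt group held 3 Xist-high arrays, numbers 1 to 3, all on 2 slides with no dko array, and 2 Y-signal arrays, numbers 4 and 5, on slides shared with dko. In wt arrays this split and the slide set therefore cannot be told apart, and in dko arrays each number held both kinds, so a dko number was not 1 animal throughout.

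Levels are given as normalized log2 intensity, where a step of 1 is a doubling. A gene passed, and is said to have risen or fallen, when limma's adjusted p over all 14416 genes was under 0.05. Of the 8 members, 7 passed the detection filter. The exception was F3, whose only probe was at background on all 36 arrays, with a smallest detection p of 0.0673, so no level is given for tissue factor. Procr and Thbs1 had 2 probes each, and in both cases the second probe was not detected on any array. Since the arrays carry RNA of whole cultures, fewer cells that express a gene and less RNA per cell cannot be told apart.

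RefSeq promoter sequences (assembly GRCm38.p6, from 250 bases before to 50 after the gene start) were at hand for 5 of the 8 members. F7 and F10 are shown because they lie next to each other on chromosome 8, with 0 coding genes between them in RefSeq, and had the highest correlation among the member pairs. Plaur is shown because it was the member detected on all arrays. Capitals mark matches to the searched motifs, and all run 5′ to 3′ on the plus strand. F7 lies at chr8:13025784-13026083, F10 at chr8:13037058-13037357 and Plaur at chr7:24462233-24462532.
F7: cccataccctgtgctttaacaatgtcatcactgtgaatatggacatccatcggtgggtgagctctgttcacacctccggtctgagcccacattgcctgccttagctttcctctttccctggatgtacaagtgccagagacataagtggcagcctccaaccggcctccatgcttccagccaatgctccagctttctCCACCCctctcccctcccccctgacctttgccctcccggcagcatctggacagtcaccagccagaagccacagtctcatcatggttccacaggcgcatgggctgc
F10: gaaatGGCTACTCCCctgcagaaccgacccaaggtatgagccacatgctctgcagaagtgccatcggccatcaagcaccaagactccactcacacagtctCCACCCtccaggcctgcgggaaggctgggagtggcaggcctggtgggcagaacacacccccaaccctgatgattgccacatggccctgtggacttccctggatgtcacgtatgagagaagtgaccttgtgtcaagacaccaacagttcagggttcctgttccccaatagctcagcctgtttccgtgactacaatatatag
Plaur: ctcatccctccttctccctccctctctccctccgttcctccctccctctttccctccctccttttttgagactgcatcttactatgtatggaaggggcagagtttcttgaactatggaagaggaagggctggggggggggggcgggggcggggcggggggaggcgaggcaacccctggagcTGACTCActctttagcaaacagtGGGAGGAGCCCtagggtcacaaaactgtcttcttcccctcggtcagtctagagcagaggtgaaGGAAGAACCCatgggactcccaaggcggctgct

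The motifs, searched on both strands, were AP-1 (TGANTCA), an NF-kB form (GGG and CC with 5 bases of any kind between them), an LXR element (AGGTCA, repeated after 4 bases of any kind), a KLF box (CCACCC), an EGR site (GCGTGGGCG) and a TATA box (TATAAA). The F7 window held 1 KLF box, at an offset of -55 from the gene start. The F10 window held 1 KLF box at -150 and 1 NF-kB form at -245 on the minus strand. Plaur held 1 AP-1 match at -69, and NF-kB forms at -46 on the plus strand, at -45 on the minus strand, which share all but 1 base at each end, and at 17 on the minus strand. Of 32851 RefSeq promoters of this length, 7.81% held the AP-1 letters, 50.8% the NF-kB form and 31.5% the KLF box, so the last 2 are common by their letters alone. The LXR element, held by 0.0152% of promoters, the EGR site, held by 0.612%, and the TATA box, held by 13.6%, had no match in these 3 windows. A match is a description of letters and not a binding site.

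Thbd was the member that moved most often: it fell with CD in unloaded dko cells, in crystal-loaded dko cells and in unloaded wt cells, and it fell with crystals in wt cells. In unloaded dko cells Thbd was at 6.39, 4.95, 5.75 and 4.60 with CD, against 7.41, 7.07, 6.71 and 7.16 in untreated cells. In crystal-loaded dko cells it was at 4.74, 5.61, 4.47 and 4.89 with CD, against 6.26, 5.95, 6.26 and 6.27 with crystals alone. In both pairs every CD array lay below every array without CD, and the array at 4.60 and the one at 4.47 had a detection p of 0.05 or more. In unloaded wt cells Thbd was at 6.29, 6.21, 5.28, 5.13 and 4.92 with CD, against 6.84, 6.87, 6.998, 6.40 and 6.74 in untreated cells, again without overlap. In loaded wt cells it was at 5.22, 5.57, 4.97, 4.63 and 4.49 with CD, against 5.08, 6.12, 5.16, 6.14 and 6.18 with crystals alone, and these groups overlapped. The arrays at 4.63 and 4.49 had a detection p of 0.05 or more.

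**Figure D1:**
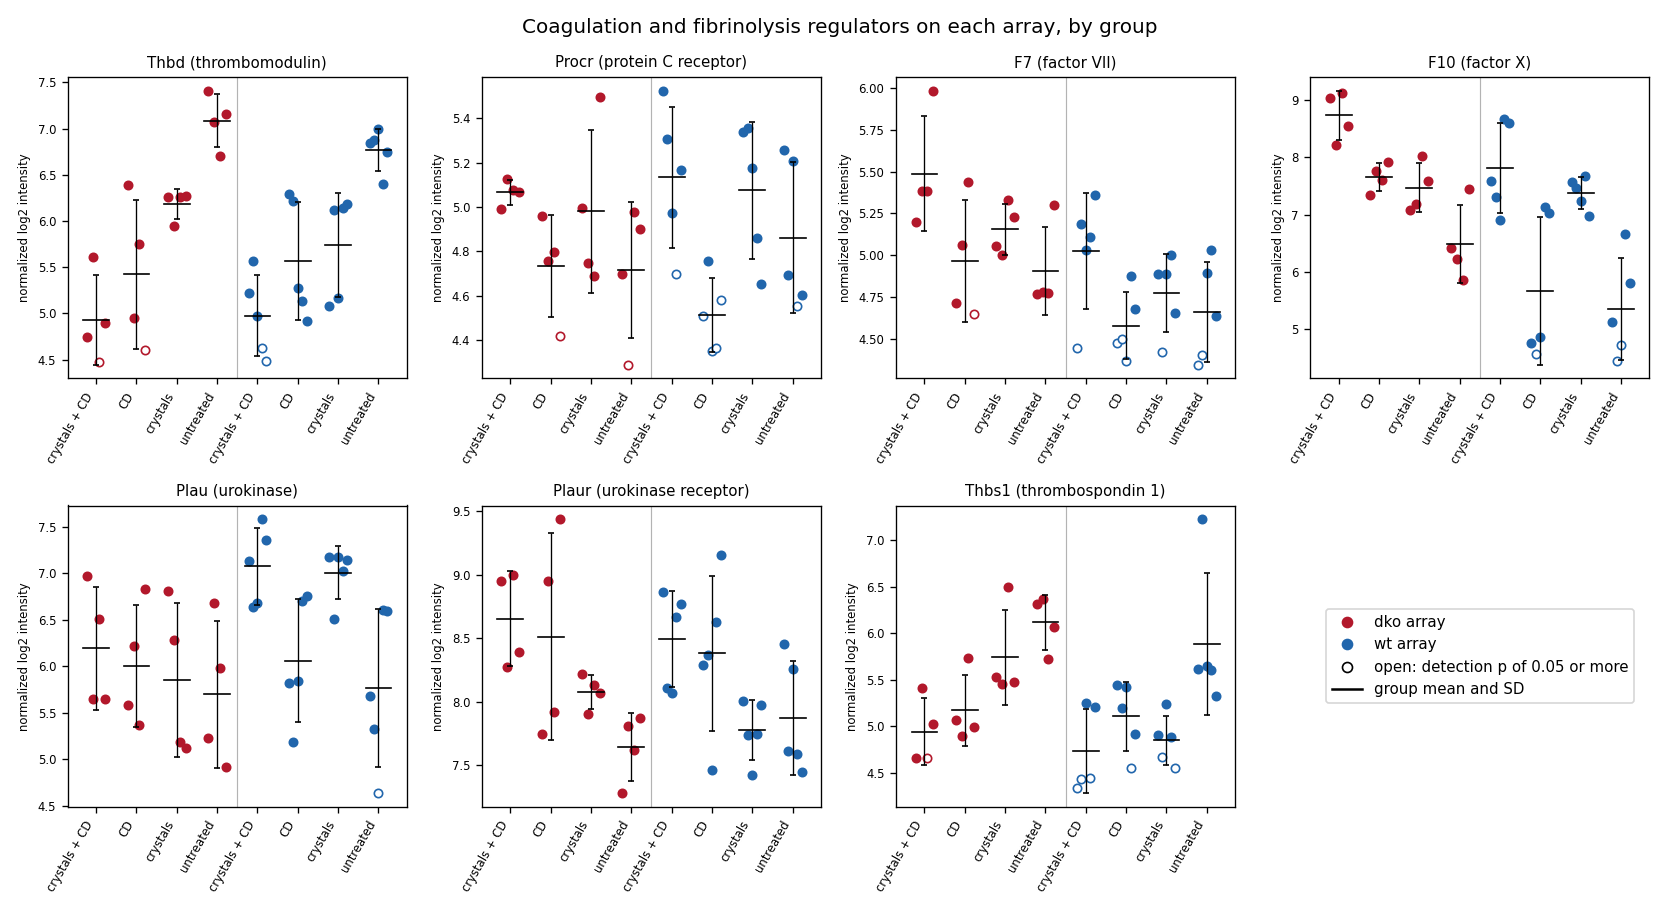
Normalized log2 intensity (vertical axes, each with its own range) of the 7 detected members on each array, for the dko groups (red) and then the wt groups (blue), with the group mean and SD and with open circles for a detection p of 0.05 or more. The group mean of Thbd was highest in untreated cells of both genotypes, and that of F10 was lowest in wt cells that were untreated or had CD alone.

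With CD, Thbd fell by 1.66 on the log2 scale in unloaded dko cells (fold 0.316, SE 0.33, limma adjusted p = 0.0048), where 1.71% of all genes passed (0.583% downward) and Thbd was the only 1 of the 7 members to do so. In crystal-loaded dko cells the change was -1.25 (SE 0.33, limma adjusted p = 0.0411), again the only member, against 1.8% of all genes (0.534% downward). In unloaded wt cells it was -1.20 (SE 0.30, limma adjusted p = 0.0399), the only member, against 0.895% of all genes (0.25% downward). In loaded wt cells the change of -0.76 (SE 0.30) had a limma adjusted p of 0.516, and there no gene of the 14416 passed (0%), while 1042 genes, 2 of them members, had an unadjusted p under 0.05. Tests of the difference between genotypes or between loaded and unloaded cells found no member: for Thbd the CD effect of dko minus that of wt was -0.46 (95% interval -1.37 to 0.45) in unloaded cells and -0.49 (95% interval -1.40 to 0.42) in loaded cells, with 0% of all genes passing in either. The CD effect in loaded minus that in unloaded cells was 0.41 (95% interval -0.55 to 1.37) in dko, where 0% of all genes passed, and 0.44 (95% interval -0.41 to 1.30) in wt, where 0.0486% passed and none of the 7 members did. With crystals and CD, Thbd was detected on 3 of 4 dko and 3 of 5 wt arrays, so background limits the fall that loaded cells could show.

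Within slides the CD difference of Thbd was -0.89 and -2.47 in unloaded dko cells, -1.78, -0.34 and -1.38 in loaded dko cells and -1.01 on the 1 slide that gave a value in unloaded wt cells. With slide as a block the 3 calls held, with limma adjusted p of 0.00539, 0.0279 and 0.0316. With median scaling in place of quantile normalization the changes were -1.46, -1.22 and -1.22 and none passed (limma adjusted p = 0.0683, 0.273 and 0.133), and with the uncorrected series matrix values they were -0.65, -0.46 and -0.63 and none passed. Leaving out dko array 9 with CD ended the call in unloaded dko cells (change -1.39, limma adjusted p = 0.0571), and that array had the lowest level of its group. The call in loaded dko cells held in 1 of 8 fits that left out an array, the one without dko array 7 with crystals and CD (limma adjusted p up to 0.205). That in unloaded wt cells held in 3 of 10, those without wt array 1 or 2 with CD or untreated wt array 4 (limma adjusted p up to 0.21). Mertk, an apoptotic-cell receptor in the macrophage marker list, was also called lower with CD in these 3 comparisons (-1.38, -1.44 and -1.44), the other 6 macrophage markers were not, and the part of cell composition in the Thbd values was not tested.

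Cholesterol crystals alone lowered Thbd in wt cells, with a change of -1.03 (fold 0.489, SE 0.30, limma adjusted p = 0.0158) and no overlap between the 5 arrays with crystals and the 5 untreated arrays. It was 1 of 4 members called in that comparison, in which 14% of all genes passed, 6.89% upward and 7.11% downward. Within slides the difference was -1.20, -0.61 and -1.85, and the call ended without crystal-treated wt array 1 or 3, with limma adjusted p up to 0.0686. By median scaling it was -1.03 (limma adjusted p = 0.0623), and on the scale of the series matrix -0.48 (limma adjusted p = 0.395). Itgam, a macrophage marker, and Pecam1, an endothelial one, were also called lower with crystals in wt cells (-0.87 and -0.75). Vwf, another endothelial marker, was called higher there (1.58). The other 6 macrophage markers were not called, and the part of cell composition in the Thbd values was not tested. In dko cells the change with crystals was -0.90 (SE 0.33) and the arrays did not overlap, but the limma adjusted p was 0.345 and none of the 7 members passed, against 0.416% of all genes. The crystal effect in dko minus that in wt was 0.13 (95% interval -0.78 to 1.04) for Thbd, so these data do not separate the genotypes. Ranked by group means, Thbd was highest in untreated dko cells (7.09 ± 0.29, SD, n = 4) and untreated wt cells (6.77 ± 0.23, SD, n = 5), and lowest after crystals and CD in dko (4.93 ± 0.49, SD, n = 4) and wt cells (4.98 ± 0.44, SD, n = 5). The only neighbours in that order whose arrays did not overlap were untreated wt cells and dko cells with crystals.

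Procr, the receptor that presents protein C to the thrombin and thrombomodulin complex, lay close to background throughout. Group means ran from 4.51 to 5.13 and 28 of 36 arrays detected it. In wt cells that received CD, Procr was at 5.52, 5.31, 4.97, 4.70 and 5.17 with crystals, against 4.51, 4.76, 4.35, 4.37 and 4.58 without them. Only 1 of the 5 arrays without crystals detected it, and the groups overlapped by the array at 4.70. The change of 0.62 (SE 0.17, limma adjusted p = 0.0214) was 1 of 2 member calls for crystals under CD in wt cells, where 7.6% of all genes passed, 4.03% upward. The same contrast was 0.12 on the 1 slide that gave a value, 0.73 over wt arrays 1 to 3 and 0.46 over arrays 4 and 5. The call ended without wt array 1 or 2 with crystals and CD, or without wt array 3 with CD alone, with limma adjusted p up to 0.0847. With the series matrix values the change was 0.37 and did not pass (limma adjusted p = 0.485). Mertk was called higher in this contrast too (1.62), as was the endothelial marker Vwf (1.46). The other macrophage markers and the other endothelial markers tested were not called. The part of cell composition in the Procr values was not tested.

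F10, the zymogen of the enzyme that makes thrombin, had the largest called changes of the 7 members, all of them upward: with crystals in wt cells, without and with CD, and in dko against wt cells after CD alone. In wt cells without CD it was at 7.58, 7.47, 7.23, 7.67 and 6.97 with crystals, against 5.13, 4.45, 4.73, 6.67 and 5.80 in untreated cells. In wt cells with CD it was at 7.59, 7.30, 6.90, 8.67 and 8.60 with crystals, against 4.76, 4.57, 4.86, 7.13 and 7.03 without them. Each crystal-treated array of the first pair lay above every untreated array, and 2 untreated arrays had a detection p of 0.05 or more. In the second pair the groups overlapped across array numbers, since wt arrays 4 and 5 were higher than arrays 1 to 3 on both sides. The array at 4.57 in that pair also had a detection p of 0.05 or more.

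Crystals raised F10 by 2.03 in wt cells without CD (fold 4.07, SE 0.44, limma adjusted p = 0.0015) and by 2.14 in wt cells with CD (fold 4.41, SE 0.44, limma adjusted p = 0.0014). Both calls held in all 10 fits that left out an array, with changes of 1.80 to 2.35 without CD and of 1.87 to 2.51 with it. Within slides the difference without CD was 2.22, 1.86 and 2.98. It was 2.65 over wt arrays 1 to 3 and 1.08 over arrays 4 and 5, and under CD it was 2.53 and 1.55 over the same arrays. In the arrays on slides shared with dko, which leaves 2 wt arrays a group, neither passed (limma adjusted p = 0.439 and 0.118). Both held by median scaling, and with the series matrix values, where the changes were 0.99 and 1.31, only the one under CD did (limma adjusted p = 0.0865 and 0.0122). The array table gives no description of the F10 probe beyond its symbol.

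In dko cells F10 was at 7.09, 7.19, 8.03 and 7.58 with crystals, against 6.42, 6.22, 5.86 and 7.45 in untreated cells, and the groups overlapped only through the array at 7.45. After CD it was at 9.04, 8.21, 9.13 and 8.55 with crystals, against 7.35, 7.77, 7.61 and 7.91 without them, with no overlap. Neither difference passed: the change with crystals was 0.98 (SE 0.49, limma adjusted p = 0.638) and under CD it was 1.07 (SE 0.49, limma adjusted p = 0.779), in a comparison where 0 of the 7 members and 0.472% of all genes passed. The crystal effect in dko minus that in wt was -1.04 for F10, with a 95% interval from -2.39 to 0.31. No member passed that test of the difference, against 0.0416% of all genes.

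F10 was also the only member called between genotypes. After CD alone it was at 7.35, 7.77, 7.61 and 7.91 in dko cells, against 4.76, 4.57, 4.86, 7.13 and 7.03 in wt cells. All 4 dko arrays lay above all 5 wt arrays, and the wt arrays fell into a low set, numbers 1 to 3, and a high set, numbers 4 and 5. The low set lay near background, and its array at 4.57 had a detection p of 0.05 or more. The difference was 1.99 (SE 0.47, limma adjusted p = 0.0492), in a comparison that called 0.368% of all genes, 0.187% as higher in dko. It was 0.21 and 0.88 within the 2 slides that held both genotypes of this pair, and 0.58 over dko arrays and wt arrays 4 and 5 together. With slide as a block the difference was 1.72 and did not pass (limma adjusted p = 0.116), by median scaling it was 1.87 (limma adjusted p = 0.49), and the call held in 2 of 9 fits that left out an array, those without wt array 4 or 5 with CD alone (limma adjusted p up to 0.222). The summed level of the 6 fibroblast markers, all tested, was 1785 to 2429 in dko and 584 to 1489 in wt cells after CD alone. That of the neutrophil markers (3 of 6 tested) was 171 to 588 in dko and 90.3 to 121 in wt cells, and that of the megakaryocyte and platelet markers (4 of 5 tested) was 827 to 1108 in dko and 1155 to 2384 in wt cells. None of these markers was called there. The fibroblast sum was also higher in dko without overlap in untreated cells (2092 to 2636, against 544 to 1817 in wt). The same held after crystals and CD (2035 to 2541, against 511 to 1978). With crystals alone the ranges overlapped (1798 to 2716 in dko, 603 to 2075 in wt). The part of these markers in the F10 values was not tested. In untreated cells F10 averaged 6.49 ± 0.68 in dko (SD, n = 4) and 5.36 ± 0.89 in wt cells (SD, n = 5), with a limma adjusted p of 0.309.

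Of the 7 members, 0 passed between the genotypes in untreated cells (0.208% of all genes), after crystals (0.375%) and after crystals and CD (0.451%). The CD change of F10 in dko cells, 1.17 unloaded and 1.26 loaded (SE 0.49 each), had limma adjusted p of 0.281 and 0.227. In loaded dko cells the arrays with CD nevertheless lay above all those with crystals alone.

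**Figure D2:**
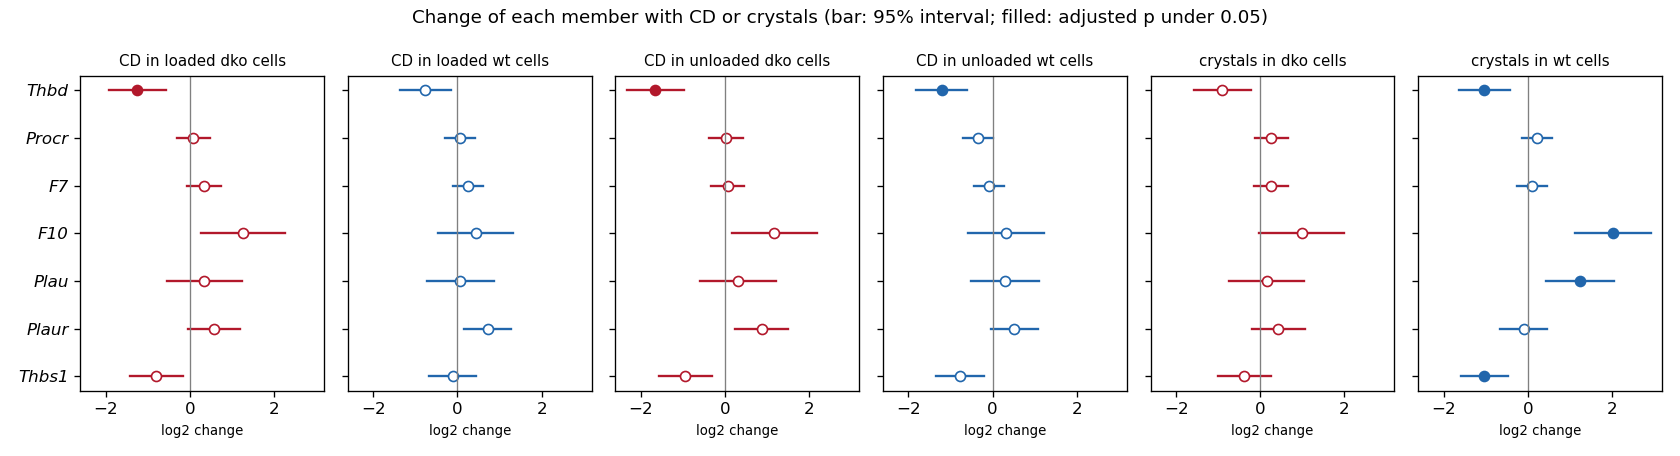
Log2 change (horizontal axes) of each member with CD in loaded and unloaded cells and with crystals, dko (red) and wt (blue), with the 95% interval as a bar and a filled point where the limma adjusted p was under 0.05. Thbd lies below 0 in all 6 panels and is filled in 4, and F10 lies above 0 in all 6 and is filled for crystals in wt cells.

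F7, the partner of tissue factor, had group means between 4.58 and 5.49 and was detected on 28 of 36 arrays. No comparison called it. Its level in dko cells with crystals and CD was 5.20, 5.39, 5.38 and 5.98, against 4.44, 5.19, 5.03, 5.11 and 5.36 in wt cells with both. The dko group had the higher mean in all 4 treatments, by 0.46 after crystals and CD, 0.39 after CD, 0.38 after crystals and 0.24 untreated (SE 0.19 each), with limma adjusted p between 0.319 and 0.618. Under CD in wt cells the crystal change of 0.45 did not pass (limma adjusted p = 0.127). Of the fits that left out an array, the one without wt array 1 with crystals and CD called it (limma adjusted p = 0.0315). Over all 36 arrays F7 and F10 correlated at r = 0.70. The points share arrays, batches and treatment groups, so this is a description.

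Plau, which encodes the secreted protease urokinase, rose with crystals in wt cells. It was at 7.17, 6.51, 7.18, 7.03 and 7.15 with crystals, against 5.68, 5.32, 4.63, 6.60 and 6.59 in untreated wt cells, and the groups overlapped by the array at 6.51. The change was 1.24 (fold 2.37, SE 0.39, limma adjusted p = 0.0304). Within slides it was 1.17, 0.44 and 2.20. Over wt arrays 1 to 3 it was 1.74 and over arrays 4 and 5 it was 0.49, and the call held in 4 of 10 fits that left out an array, those without wt array 2 or 4 with crystals or without untreated wt array 4 or 5 (limma adjusted p up to 0.132). It ended by median scaling (limma adjusted p = 0.112), with no detection filter (limma adjusted p = 0.0664) and on the scale of the series matrix, where the change was 0.58. Under CD the wt change with crystals was 1.02 (SE 0.39, limma adjusted p = 0.123).

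In dko cells Plau was at 6.81, 6.28, 5.19 and 5.12 with crystals, against 5.22, 6.68, 5.98 and 4.92 in untreated cells, and the change was 0.15 (SE 0.44, limma adjusted p = 0.999). The difference of the crystal effect, dko minus wt, was -1.09 for Plau, with a 95% interval from -2.30 to 0.11 that did not pass. After crystals the genotype difference was -1.16 (SE 0.42, limma adjusted p = 0.198), with means of 5.85 ± 0.83 in dko (SD, n = 4) and 7.01 ± 0.29 in wt cells (SD, n = 5). CD left Plau within 0.34 of its level without CD in all 4 pairs, with SE of 0.39 to 0.44.

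Plaur, the membrane anchor for urokinase, was the member detected on all 36 arrays and passed in no comparison. In unloaded dko cells it was at 7.75, 8.95, 7.92 and 9.44 with CD, against 7.28, 7.81, 7.62 and 7.87 in untreated cells. In loaded dko cells it was at 8.95, 8.27, 8.995 and 8.39 with CD, against 8.22, 7.90, 8.13 and 8.06 with crystals alone. The loaded pair did not overlap, and the unloaded pair did through the array at 7.75. In loaded wt cells Plaur was at 8.86, 8.11, 8.07, 8.66 and 8.77 with CD, against 8.01, 7.74, 7.42, 7.74 and 7.97 with crystals alone, again without overlap. The CD changes were 0.57, 0.87, 0.72 and 0.51 in loaded dko, unloaded dko, loaded wt and unloaded wt cells, with limma adjusted p of 0.488, 0.168, 0.486 and 0.643. Without dko array 6 with CD alone the change in unloaded dko cells was 1.12 and passed (limma adjusted p = 0.0429).

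Thbs1, a matrix protein that binds many partners and is best known for activating latent TGF-beta, fell with crystals in wt cells. It was at 4.90, 4.67, 5.24, 4.89 and 4.55 with crystals, against 5.61, 7.23, 5.65, 5.61 and 5.32 in untreated wt cells. The groups did not overlap, and 2 of the 5 crystal-treated arrays had a detection p of 0.05 or more. The change was -1.04 (SE 0.28, limma adjusted p = 0.00868), and without untreated wt array 2, the one at 7.23, it was -0.70 with a limma adjusted p of 0.0518. Within slides the difference was -0.66, -0.44 and -1.54, and the call ended by median scaling (limma adjusted p = 0.0794) and on the scale of the series matrix, where the change was -0.39.

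In dko cells Thbs1 was at 5.53, 5.45, 6.50 and 5.48 with crystals, against 6.31, 6.37, 5.72 and 6.07 in untreated cells, a change of -0.38 (SE 0.31, limma adjusted p = 0.914). With crystals alone the dko arrays all lay above the wt arrays, a difference of 0.89 (SE 0.29) that did not pass (limma adjusted p = 0.157). The CD change was -0.80 in loaded dko cells, -0.94 in unloaded dko cells, -0.12 in loaded wt cells and -0.78 in unloaded wt cells, with limma adjusted p between 0.118 and 0.997. Thbs1 and Thbd correlated at r = 0.67 over the 36 arrays, and Plaur and Thbd at r = -0.66.

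Several members differed between the Y-signal and the Xist-high arrays of the same group. Plau was higher on the Y-signal arrays, with no overlap, in 7 of 8 groups, including all 4 dko groups, and the difference of means ran from 0.14 to 1.39 over the 8 groups. Thbd was lower on the Y-signal arrays, with no overlap, in 7 of 8 groups, and higher on them in wt cells with crystals, with differences from -1.30 to 0.70. In dko cells with CD alone, for example, the Y-signal arrays had Thbd at 4.95 and 4.60 and the Xist-high arrays at 6.39 and 5.75. With crystals alone the kinds of array were barely apart. The nearest Y-signal and Xist-high arrays were then at 6.255 and 6.257 in dko and at 6.14 and 6.12 in wt cells. F10 was higher on the Y-signal arrays, with no overlap, in all 4 groups that received CD, by up to 2.35 in 1 wt group. It was also higher on them in untreated wt cells (1.47), and lower in dko cells that were untreated or had crystals alone. Plaur was higher on the Y-signal arrays without overlap in 3 of the 4 CD groups, and lower without overlap in untreated wt cells (-0.59). Thbs1 was lower on the Y-signal arrays without overlap in 4 of 8 groups and Procr in 3 of 8. F7 was lower on them without overlap in 2 groups and higher in 1, and in dko cells with crystals and CD the nearest arrays were at 5.384 and 5.386. These are groups of 2 or 3 arrays, the differences were not tested, and in wt arrays the slide set differs in the same way. The share of all genes that separate in this way was not counted, so the counts do not mark these members out.

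**Figure D3:**
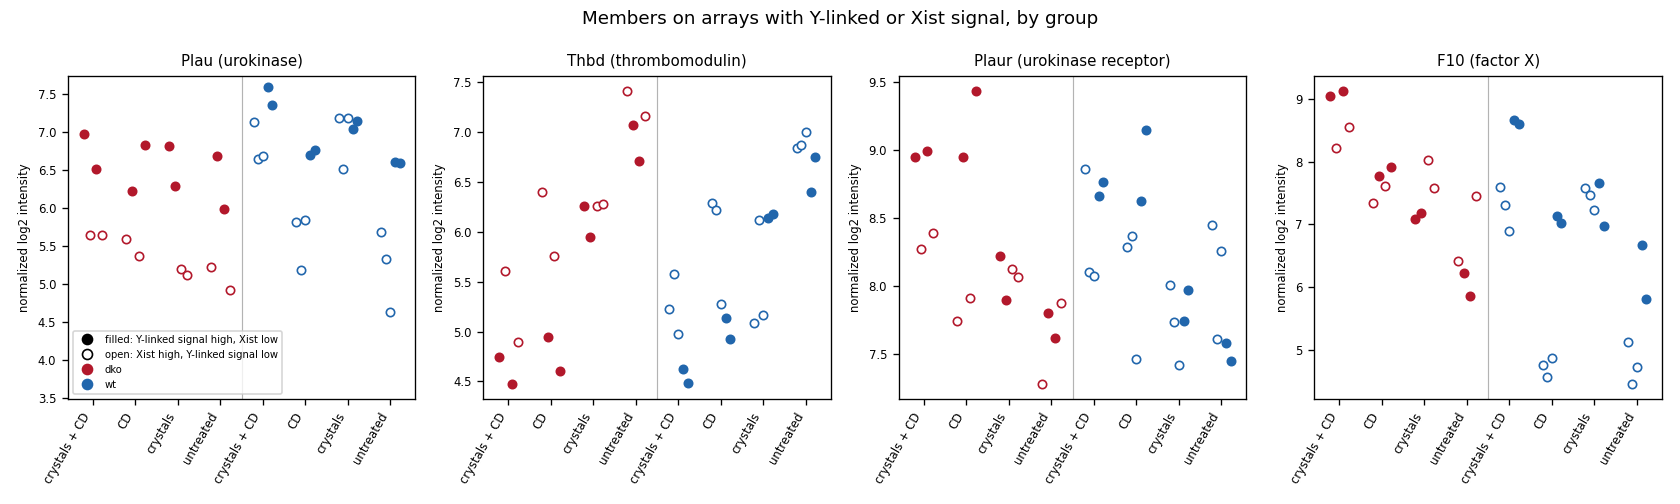
Normalized log2 intensity (vertical axes) of Plau, Thbd, Plaur and F10 on each array by group, filled where Y-linked signal was high and open where Xist was high, for dko (red) and wt (blue). Filled points lie above open ones for Plau in all 4 dko groups and below them for Thbd in those groups, barely so with crystals alone.

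Since each dko group and each wt group held the 2 kinds of array in fixed numbers, a fit with Xist signal as a term, added after the data were seen, left the treatment changes as they were and narrowed their errors. All 9 treatment calls of members held in it. F10 with CD in dko cells then passed too, with limma adjusted p of 0.0423 unloaded and 0.0263 loaded. So did Thbs1 with CD in unloaded dko cells (limma adjusted p = 0.0367). The term is 1 offset per genotype, the same in every treatment. For F10 in dko cells, however, Y-signal minus Xist-high arrays was -0.89 untreated, -0.67 with crystals, 0.36 with CD and 0.70 with both. The error is shared by all 8 groups, so the wt term enters the errors of the dko changes too. With crystals under CD in wt cells Plau and F7 passed (limma adjusted p = 0.000798 and 0.0435). The number of all genes called rose as well, from 247 to 855 with CD in unloaded dko cells and from 260 to 857 in loaded ones. With crystals under CD in wt cells it rose from 1095 to 2038. That fit had a separate Xist term in each genotype, so its differences between genotypes are fitted values for the Y-signal arrays alone. The fitted Plau difference after crystals, dko minus wt, was -1.05 for those arrays (limma adjusted p = 0.0202). Their measured means, 6.54 in dko and 7.09 in wt cells, lay closer together than that. In wt cells the Plau gap between Y-signal and Xist-high arrays was 0.14 with crystals and 1.39 untreated, while the fit takes 1 offset for both. After crystals 230 genes passed in that fit, against 54 without the term. The fitted F10 difference after CD was 1.16 for the Y-signal arrays and did not pass (limma adjusted p = 0.166). Their measured F10 means after CD were 7.84 in dko and 7.08 in wt cells, again closer together than the fitted value. Neither fitted value is a genotype difference over both kinds of array, and the one for Xist-high arrays was not computed. In wt arrays the term cannot be told apart from the slide set.

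Among 48 other genes of coagulation and fibrinolysis, 47 had a probe and 26 were tested. With crystals in wt cells 3 of the 26 rose and 2 fell, where 14% of all genes passed, and the median change was -0.04 over the list and -0.01 over all genes. The 3 that rose were Vwf, the platelet-tethering factor (1.58, SE 0.28, limma adjusted p = 0.000141), Mcfd2, a cargo receptor subunit for factors V and VIII (0.59, SE 0.09, limma adjusted p = 3.45e-05), and Plgrkt, a plasminogen receptor (0.56, SE 0.10, limma adjusted p = 0.000107). Those that fell were Pros1, the protein S cofactor of activated protein C (-0.88, SE 0.19, limma adjusted p = 0.00152), and Ggcx, the vitamin K-dependent carboxylase that matures factors VII and X (-0.41, SE 0.13, limma adjusted p = 0.033). Under CD the same contrast called Vwf (1.46), Plgrkt (0.62), Mcfd2 (0.57) and Pros1 (-0.74), where 7.6% of all genes passed, and none of the 26 passed in any other comparison. Vwf is also a marker of endothelium and megakaryocytes; of the other endothelial markers tested, Pecam1 fell with crystals in wt cells (-0.75) and no megakaryocyte marker passed. The summed level of the endothelial list was 481 to 654 in wt cells with crystals and 200 to 323 in untreated wt cells, and of its 4 tested members Vwf was the bright one, at a mean log2 intensity of 8.90 with crystals and 7.32 untreated, while the medians of Pecam1, Cdh5 and Kdr over all arrays were 4.63, 4.57 and 4.49. The part of endothelial RNA in the Thbd and Procr values was not tested.

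By pattern over the 36 arrays, the genes most like Thbd were Dnajc28 (r = 0.92), Ehd4 (r = 0.92) and Cytip (r = 0.91), and those most like F10 were Ddhd1 (r = 0.95), Plpp3 (r = 0.94) and Psmb6 (r = 0.94). Plaur was most like Pgs1 (r = 0.87), Fas and Abcc5 (r = 0.84 each). Plau was followed most closely by E030040L08RIK (r = 0.88), C230043G09RIK (r = 0.87) and Nup88 (r = 0.86). For F7 they were Alg9 (r = 0.82), Alg3 (r = 0.81) and Layn (r = 0.78), for Thbs1 they were Trp53inp2 (r = 0.78), Hltf and Tspan3 (r = 0.77 each), and for Procr they were Panx1 (r = 0.78), Slc39a7 (r = 0.76) and Ecsit (r = 0.74). These correlations describe arrays that share groups, slides and the Xist and Y split, and carry no test.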

How the data were processed

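Total RNA of cultured macrophages was labelled and hybridised to 36 Illumina bead arrays, with 4 arrays in each dko group and 5 in each wt group. For every probe on every array the authors deposited 1 intensity and 1 detection p-value; median intensities of the arrays lay between 83.5 and 128, the lowest single one at 69.4. The deposited series matrix holds log2 of the same intensity (largest difference 5.57e-05), so it is neither centred nor normalized further, with medians per array of 6.38 to 7.00. Partek appears in the submitters' processing notes, without a role.

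From the intensities, limma 3.58.1 in R 4.3.3 computed neqc values (normexp background correction from the detection p-values, offset 16, log2, quantile normalization). Probes with a detection p under 0.05 on at least 4 arrays were kept, 21126 of 45281, and the probe with the highest mean stood for a gene, giving 14416 genes. An array detected 15342 to 17892 probes, and the number of arrays limits the precision. Symbols were updated through a RefSeq gene table (27740 probes matched by symbol and 7995 by synonym, and 9546 kept the file's name), and 1 unnamed line was dropped. One linear model over the 8 groups was fitted with lmFit and eBayes, giving 17 comparisons with Benjamini-Hochberg adjustment over all genes in each. Comparisons within a genotype share groups with each other. Correlations between replicates were 0.964 to 0.995 over genes; none were near-identical (smallest root-mean-square difference 0.24).

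All 8 members are described, with the 3 genes most correlated with each over the 36 arrays and every other coagulation or fibrinolysis gene of a list that was called. The members and lists were chosen with earlier results of these data known. The fit was tested on simulated data. Alternatives were the normalization, the background correction, the series matrix values, the detection filter, every probe in place of 1 a gene, slide or replicate number as a block, the slides that hold both genotypes, leaving out each array and, added later, Xist signal as a term.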

Additional observations from a re-analysis of the deposited data

Results flagged for a closer look

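Of 56 sets of arrays, 7 members in 8 groups, 5 had 1 array whose gap to its nearest neighbour was large for the range of its group by Dixon's test, which chance alone gives in about 1 in 20 sets. Thbs1 stood apart in untreated wt array 2 at 7.23, where the other 4 arrays averaged 5.55 ± 0.15 (SD, n = 4), and in dko array 8 with crystals at 6.50. Thbd was lowest in dko array 7 with crystals, at 5.95, where the other 3 were at 6.26, 6.26 and 6.27. Plau was lowest in wt array 2 with crystals, at 6.51, and F7 was highest in untreated dko array 9, at 5.30.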

How the results depend on the processing

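Counts below are of called members. With crystals in wt cells the count of 4 became 1 by median scaling and 0 with the series matrix values or with the slides shared by both genotypes, and the genes called in all were 2018, 498, 129 and 77 in that order. For crystals under CD in wt cells 2 became 1 with the series matrix, 0 with the shared slides and 4 with the Xist term, and the genes called in all were 1095, 79, 99 and 2038 in that order. For CD in unloaded wt cells 1 became 0 by median scaling, the series matrix, no detection filter or the shared slides. For CD in unloaded dko cells 1 became 0 by median scaling or the series matrix, 3 with the shared slides and 3 with the Xist term. In loaded dko cells 1 became 0 by median scaling, the series matrix, no background correction or no filter, 2 with the shared slides and 2 with the Xist term. Between genotypes after CD, 1 became 0 in every alternative but the random replicate block, and after crystals 0 became 1 with the Xist term. With that term the genotype differences are fitted values for the Y-signal arrays alone, and after crystals it called 230 genes in all, against 54. The shared slides hold fewer wt arrays but every dko array, and no filter means more genes tested. Other causes were not tested. Over all genes, the shared slides called 474 with CD in unloaded dko cells, against 247 in the main fit. In loaded dko cells they called 466, against 260. Leaving out each array gave 2 to 4 called members for crystals in wt cells, 1 to 2 for crystals under CD in wt cells, 0 to 2 for CD in unloaded dko cells and 0 to 1 for CD in unloaded wt cells, CD in loaded dko cells and the genotypes after CD. Over all genes, the Xist term raised the number called with CD in unloaded dko cells to 855, against 247 without it, in loaded dko cells to 857 against 260, and median scaling lowered them to 34 and 2. With replicate number as a block every member call held, and F10 with crystals in wt cells had a limma adjusted p of 5.68e-05. The replicate block raised the count of all called genes with CD in unloaded dko cells to 443. Same-numbered dko arrays did not deviate together (10 of 24 pairs over 0.1, median -0.40, 0 of 16 arrays correlated best with their own number). Most wt arrays did (27 of 30 pairs over 0.1, median 0.53, against -0.23 for other pairs, and 16 of 20 best with their own number), which is a hint from the data, so the numbers were not taken as pairs. Levels near background limit what can be seen, as for Procr, F7 and Thbs1, for Thbd after crystals and CD, and for F10 on some wt arrays without crystals.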
